A study of Mus musculus with 6 samples.

Results

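The nuclear receptors, coactivators, corepressors and mitochondrial transcription factors that set the oxidative capacity of cardiac muscle were followed in mouse hearts after induced recombination of Nelfb, which encodes subunit B of NELF, the negative elongation factor of RNA polymerase. They were taken by name as a list of 33 genes, out of 16593 genes with a probe in the data, and every probe annotated to one of them was read. Of the 33, 31 had at least 1 probe, 44 probes in all, and Pprc1 and Ncor1 were not analysed here for lack of one. A probe counted as detected when its detection p, the share of the array's negative control beads that were at least as bright, was below 0.05 on at least 3 of the 6 arrays. By this rule 24 probes of 21 genes were detected and 20 probes were not, and 10 genes had no detected probe.

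Heart RNA of female C57BL/6J mice was hybridised to 6 Illumina bead arrays, and the design text gives 3 mice for each group of 3 arrays. The 3 control mice were homozygous for floxed Nelfb (Nelf-b f/f), and the 3 knockout mice carried these alleles together with CreER, a Cre recombinase fused to a receptor domain that tamoxifen activates. All mice had tamoxifen at 8 weeks and regular chow, and their hearts were collected at 20 weeks after a fast of 5 hours. Since CreER was absent from the controls, its presence and the loss of Nelfb cannot be told apart, and its promoter and the exons removed are not in the labels.

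In the non-normalized table the column headers swap control and knockout relative to the sample records. Groups here follow the records, and every sign below would turn with the headers. The brighter Nelfb probe was between 7.01 and 7.08 on the log2 scale in the controls and between 5.41 and 5.46 in the knockouts, a log2 difference of -1.61 ± 0.13 (SE, n = 3 mice per group). The other Nelfb probe, also detected on all 6 arrays, gave a smaller difference of -0.94 ± 0.14 SE. Mean signal before normalization ran from 169.8 to 310.3 per array, and 38.8% to 43.8% of probes were detected. Control array 1 stood apart from the other 5 on the second principal component, at 18.71 against -8.55 to 1.64. In bulk tissue, fewer cells of a type and less RNA per cell cannot be told apart. Of the 7 cardiomyocyte markers listed, 6 had a probe and 5 were detected (Myh6, Tnni3, Actc1, Myl2 and Actn2), while Ryr2 was not. Their summed log2 signal was 16.16 to 16.2 in controls and 16.14 to 16.3 in knockouts, a sum that the brightest probes dominate. Within it Tnni3 was lower in knockouts by estimate (-1.05 ± 0.32 SE, adjusted p = 0.0948) and Actn2 higher without overlap of the groups (0.40 ± 0.13 SE, adjusted p = 0.104), and neither was called.

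These regulators form a layered circuit. In cardiac muscle, peroxisome proliferator-activated receptors (PPARs) and estrogen-related receptors (ERRs) bind the promoters of genes for fatty acid oxidation and respiration, PPARs as partners of retinoid X receptors. Coactivators of the PGC-1 family dock on them and recruit histone acetyltransferases and the Mediator complex, while corepressors such as Nrip1 oppose them. Nuclear respiratory factor 1 (Nrf1) and the GA-binding protein (Gabpa with Gabpb1) switch on nuclear genes for the respiratory chain, and also the factors that transcribe the mitochondrial genome: the polymerase Polrmt, the DNA-packaging activator Tfam and the initiation factor Tfb2m.

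Promoter sequence was examined because NELF acts on polymerase shortly after initiation. The windows shown run from 250 bases before to 50 bases after the annotated start (RefSeq, GRCm38.p6). They belong to the 4 of 21 tested regulators whose knockout and control signals did not overlap. None of the 4 was called, and groups did not overlap for 24.9% of all genes tested. Capitals mark matches to 6 short motifs searched on both strands. For NRF1 the letters were GCGCATG. For ETS factors, the family of Gabpa, they were CCGGAAG. The core of ERR sites was searched as AAGGTCA and that of YY1 as AAGATGG. E-boxes were read as CACGTG and TATA boxes as TATAAA. For a gene with several windows the first in the direction of transcription is shown, with any further window that holds a match.
Sirt1, chr10:63338986-63339285, minus strand: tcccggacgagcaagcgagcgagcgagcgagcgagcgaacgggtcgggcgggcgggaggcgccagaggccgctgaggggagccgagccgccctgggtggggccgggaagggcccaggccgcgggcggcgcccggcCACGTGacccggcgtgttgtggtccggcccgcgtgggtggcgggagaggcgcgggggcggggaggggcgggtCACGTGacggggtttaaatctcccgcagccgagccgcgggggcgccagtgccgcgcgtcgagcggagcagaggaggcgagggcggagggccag
Tfb2m, chr1:179546227-179546526, minus strand: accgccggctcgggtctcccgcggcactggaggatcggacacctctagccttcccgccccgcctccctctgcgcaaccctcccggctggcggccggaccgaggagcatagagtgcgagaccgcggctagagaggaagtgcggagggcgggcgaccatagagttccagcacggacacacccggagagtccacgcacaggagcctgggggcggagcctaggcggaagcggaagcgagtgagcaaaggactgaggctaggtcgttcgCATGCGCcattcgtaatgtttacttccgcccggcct
Rxrb, chr17:34031562-34031861, plus strand: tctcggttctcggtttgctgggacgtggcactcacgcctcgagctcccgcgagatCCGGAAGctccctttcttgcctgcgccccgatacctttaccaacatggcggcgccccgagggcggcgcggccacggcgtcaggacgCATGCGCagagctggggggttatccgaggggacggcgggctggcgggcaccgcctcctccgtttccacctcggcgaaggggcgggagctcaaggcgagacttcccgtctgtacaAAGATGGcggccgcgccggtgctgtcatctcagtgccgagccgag
Rxrg, chr1:167598112-167598411, plus strand: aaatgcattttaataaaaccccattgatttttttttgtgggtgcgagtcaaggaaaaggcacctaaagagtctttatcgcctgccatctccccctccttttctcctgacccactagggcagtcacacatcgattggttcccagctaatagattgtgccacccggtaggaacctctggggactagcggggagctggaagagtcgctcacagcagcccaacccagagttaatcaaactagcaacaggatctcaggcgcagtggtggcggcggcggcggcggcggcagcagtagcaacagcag
Rxrg, chr1:167618015-167618314, plus strand: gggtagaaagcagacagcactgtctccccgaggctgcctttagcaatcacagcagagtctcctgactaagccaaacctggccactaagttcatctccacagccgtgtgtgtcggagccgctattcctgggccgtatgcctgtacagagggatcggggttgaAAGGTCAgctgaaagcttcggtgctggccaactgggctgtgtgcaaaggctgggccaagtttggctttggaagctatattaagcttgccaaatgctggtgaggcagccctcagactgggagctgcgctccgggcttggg

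The Tfb2m window held the NRF1 core on the reverse strand, with its first letter at base 15 after the start. The Rxrb window held 3 different motifs, an ETS core at position -195 and an NRF1 core at -109 from the start, and a YY1 core at base 6 after it. The Sirt1 window held the E-box at 2 places and was 79% G or C, and the second Rxrg window held an ERR core. No matches overlapped one another in these windows. A match is a run of letters and not a measured binding site.

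Among the 30 regulators with a window, 45 windows in all, 6 held the NRF1 core (Esrra, Polrmt, Ppara, Prdm16, Rxrb and Tfb2m), or 20%, against 4.41% of the 27025 genes with a window. The ETS core was present in 6 (Gabpa, Ncor1, Polrmt, Rxrb, Sirt3 and Tfam), again 20%, against 9.93%. The ERR core was found in Perm1, Rxra and Rxrg (10% against 5.38%) and the YY1 core in Gabpa, Ncor1 and Rxrb (10% against 7.28%). E-boxes occurred in 3 (Klf15, Sirt1 and Thrb) against 8.09% of all genes, and the TATA box in 5 of the 30 against 15.7%. The regulators had more windows per gene than all genes, which raises a share counted by gene. Counted by window, the NRF1 core was in 13.3% of theirs against 3.91% of all 32851, the ETS core in 13.3% against 8.86%, the ERR core in 6.67% against 4.72% and the YY1 core in 8.89% against 6.34%. By that count E-boxes (6.67% against 7.15%) and TATA boxes (11.1% against 13.6%) were below all windows. The windows of the regulators were also richer in G and C than all windows, with a median of 61.3% against 52.7% and 22 CpG dinucleotides against 7, and the part of this in the motif counts was not tested.

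None of the 21 tested regulators passed the test in the knockout hearts. The counts called were 0 higher and 0 lower, where 4.25% of the 7579 genes tested were called, 2.24% higher and 2.01% lower (limma, Benjamini-Hochberg adjusted p below 0.05). Counted by probe, 0 of 24 were called against 3.8% of 10407 probes. At an unadjusted p below 0.05 there were 2 regulators, Sirt1 and Tfb2m, where 20.4% of all genes reached that level. Groups did not overlap for 4 of the 21 (Sirt1 higher, Tfb2m, Rxrb and Rxrg lower), against 24.9% of all genes.

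The differences were of a size near that of all genes. They ran from -0.34 to 0.38 on the log2 scale, with a median of -0.077 against 0.006 for all genes, and a median size without sign of 0.149 against 0.176. No gene with a difference under 0.53 in size was called anywhere in this fit, so each regulator lay below the size at which calls began. The intervals bound what may have been missed. Each 95% interval, taken gene by gene from the brightest detected probe, stayed between -0.714 and 0.696. By that probe a change of more than 1.64-fold lay outside the interval of every tested regulator, and for 17 of 21 a change of 1.5-fold did as well. Second detected probes allowed larger falls, with intervals down to -0.779 for Rxrb, -0.635 for Gabpb1 and -0.617 for Tfam. All these changes are those of background-corrected signal with an offset of 16, which understates the change of dim probes. The 17 include Gabpa, Gabpb1 and Ncoa2, whose mean signal lay near the lowest detected signal. For these 3 genes the interval bounds the signal and does not bound the change of the transcript.

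**Figure D1:**
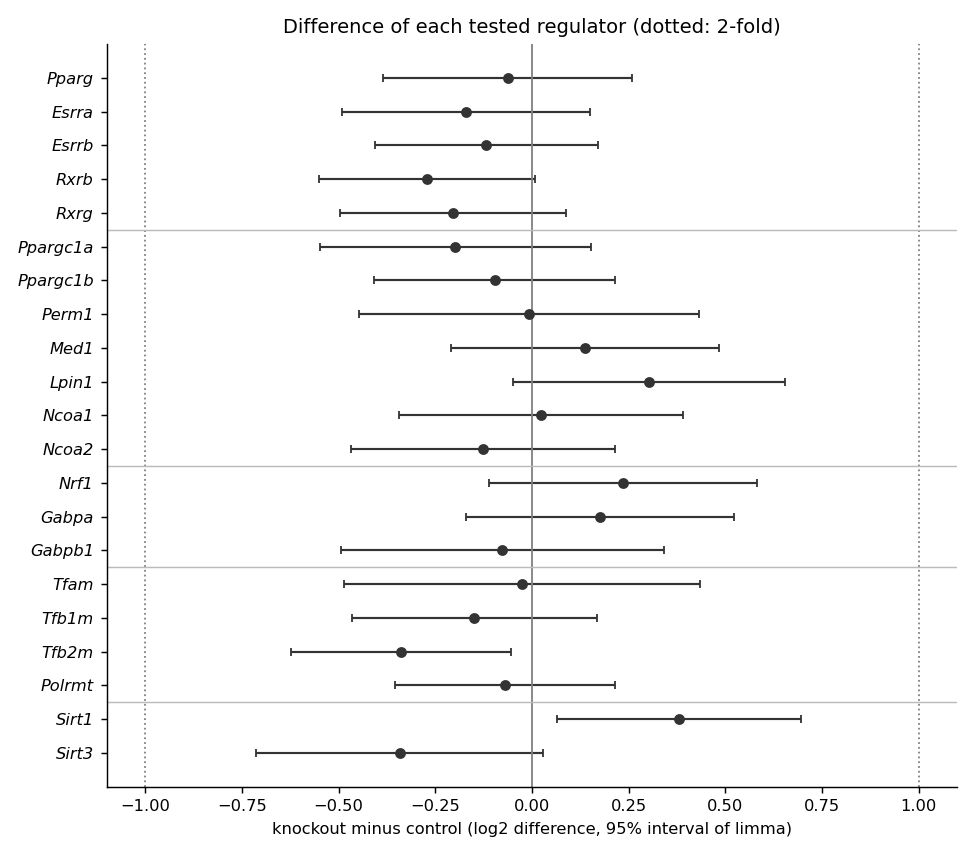
Knockout minus control log2 difference (x axis) of the 21 tested regulators (y axis), grouped by role, as points with the 95% interval of limma from 3 mice per group. All intervals lie inside the dotted lines of a 2-fold change, and those of Sirt1 and Tfb2m leave out 0.

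By point estimate 15 of the 21 were lower and 6 higher in knockouts, where 49.1% of all genes were lower. All 5 tested nuclear receptors, of 11 listed, and all 4 mitochondrial transcription factors lay below 0, although none of the 9 passed the test. Of these, Pparg (-0.063) and Tfam (-0.026) were close to 0 and turned sign under some alternative settings. The median pooled SD between mice of a group was 0.189 for the regulators and 0.187 for all genes.

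**Figure D2:**
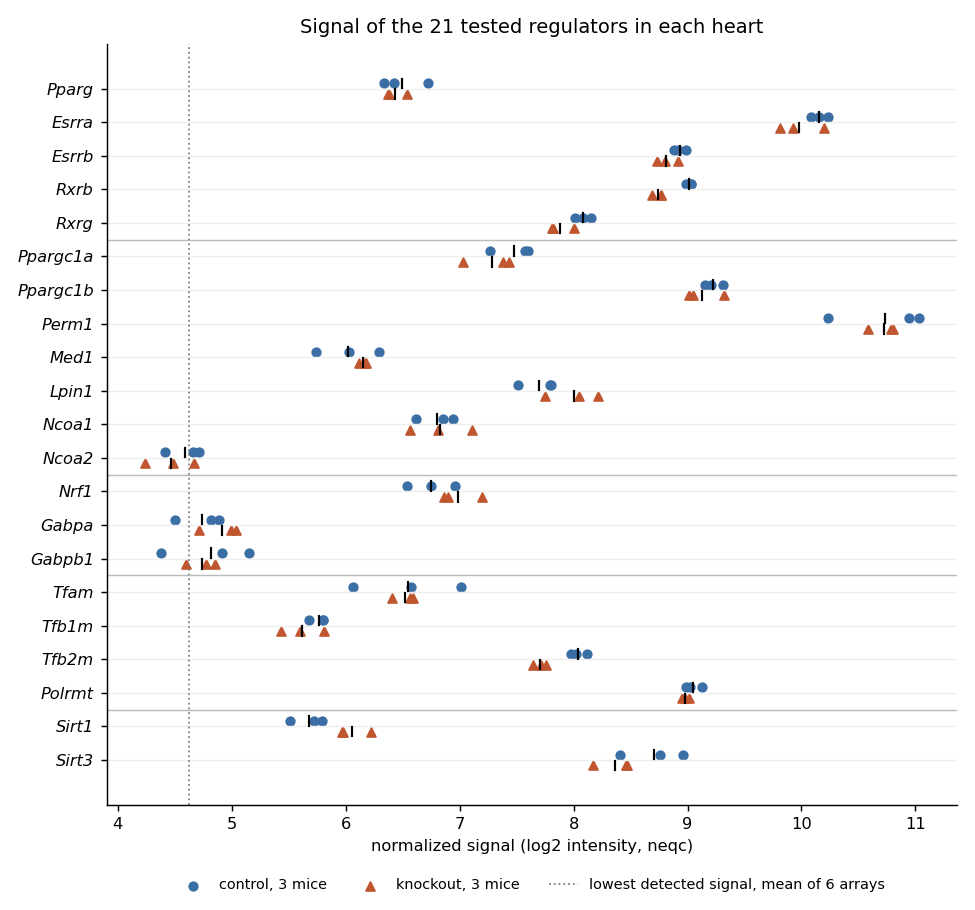
Normalized log2 signal (x axis) of the 21 tested regulators (y axis) in the 3 control (circles) and 3 knockout hearts (triangles), with group means as black bars and the mean lowest detected signal as a dotted line. Groups separate for Sirt1, Tfb2m, Rxrb and, by a narrow margin, Rxrg, and 3 genes (Gabpa, Gabpb1 and Ncoa2) sit at the dotted line. Levels of different genes come from different probes and are not comparable.

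Of the 11 nuclear receptors, 5 were detected. Rxrb and Rxrg encode retinoid X receptors, the common partners of PPARs and thyroid hormone receptors. The brighter Rxrb probe read 9.03, 8.99 and 9.03 in controls 1 to 3 and 8.77, 8.77 and 8.69 in knockouts 1 to 3. The groups did not overlap, and the spread within each was narrow (SD 0.026 and 0.046). The difference was -0.27 ± 0.13 SE, or 1.21-fold lower, with an adjusted p of 0.255. It was called only with no background correction (-0.23, adjusted p = 0.0447). The second Rxrb probe, which was dimmer, gave a like difference of -0.29 ± 0.23 SE, but its groups overlapped: 5.4, 5.67 and 6.12 in controls against 4.97, 5.71 and 5.65 in knockouts.

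Rxrg, the isoform enriched in striated muscle, read 8.15, 8.08 and 8.01 in controls and 8, 7.82 and 7.81 in knockouts. The lowest control and the highest knockout nearly met. The difference was -0.20 ± 0.13 SE (adjusted p = 0.426).

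Among the ERRs, Esrra, a main driver of mitochondrial genes together with PGC-1 proteins, was 10.15 ± 0.07 in controls and 9.98 ± 0.20 in knockouts (log2, SD, n = 3). Its difference of -0.17 ± 0.15 SE had an interval from -0.49 to 0.15. Esrrb, better known from pluripotent cells, was 8.93 ± 0.06 and 8.81 ± 0.096, a difference of -0.12 ± 0.13 SE. Pparg, the receptor that directs fat cell formation, was 6.50 ± 0.20 and 6.43 ± 0.095 by its only detected probe of 3, a difference of -0.06 ± 0.15 SE. Groups overlapped for all of Esrra, Esrrb and Pparg, with adjusted p from 0.557 to 0.849.

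Because Pparg and several coactivators are also active in adipose tissue, fat cell markers were read beside them. Of 7 adipocyte markers with a probe, 3 were detected (Adipoq, Lep and Lipe) and none was called, while Retn, Plin1, Cidec and Fabp4 were not detected. The summed log2 signal of the 3 was 6.55 to 6.6 in controls and 6.62 to 6.67 in knockouts. Within it Lep was higher without overlap of the groups (0.36 ± 0.15 SE) and Lipe lower by estimate (-0.24 ± 0.16 SE). Adipoq, at 0.07 ± 0.19 SE, and Lep in the controls lay near the lowest detected signal. Of 4 brown adipocyte markers, Ucp1, Elovl3 and Dio2 were not detected, and Cidea, a lipid droplet protein gene, fell by 0.65 on the log2 scale (adjusted p = 0.0448). The part of fat in the signal of Pparg was not tested.

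Of the 8 coactivators with a probe, 7 were detected. Ppargc1a, the PGC-1 alpha gene and inducible hub of the circuit, read 7.57, 7.6 and 7.27 in controls and 7.43, 7.03 and 7.38 in knockouts. The groups overlapped, since control 3 lay below 2 of the knockouts. The difference was -0.20 ± 0.16 SE, with an interval from -0.55 to 0.15 and an adjusted p of 0.529. Its relative Ppargc1b was 9.22 ± 0.085 in controls and 9.13 ± 0.17 in knockouts, a difference of -0.10 ± 0.14 SE.

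Lpin1 encodes a phosphatidate phosphatase that also works as a coactivator of PPAR alpha and PGC-1 alpha, as shown in mouse liver. Its detected probe read 7.79, 7.8 and 7.51 in controls and 8.05, 7.75 and 8.21 in knockouts. Knockouts 1 and 3 were above every control and knockout 2 was not. The difference, 0.30 ± 0.16 SE or 1.23-fold higher, was the largest rise among the coactivators by estimate, with an adjusted p of 0.315. Both other Lpin1 probes were undetected on all 6 arrays.

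The remaining coactivators centred near 0 or close to background. Perm1, a muscle gene induced by PGC-1 and ERR that feeds back on oxidative genes, ran from 10.23 to 11.03 in controls and from 10.58 to 10.8 in knockouts. Its lowest value was control array 1, the array that stood apart, and its difference of -0.01 ± 0.20 SE became -0.26 without that array, with no call. Ncoa1, a steroid receptor coactivator, differed by 0.02 ± 0.17 SE, and Med1, the Mediator subunit that contacts nuclear receptors, by 0.14 ± 0.16 SE through 1 of its 4 probes. Ncoa2 was detected on only 3 arrays, and its mean minus the average lowest detected signal was -0.09. Its difference of -0.13 ± 0.16 SE was therefore measured at background level. Adjusted p for these 4 ran from 0.682 to 0.987.

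The nuclear factors that act on genes of mitochondrial proteins were measured thinly. Nrf1 read 6.96, 6.54 and 6.75 in controls and 7.2, 6.86 and 6.9 in knockouts. The knockout mean was higher by 0.24 ± 0.16 SE, and control 1 lay above 2 of the knockouts (adjusted p = 0.44). Gabpa, the DNA-binding subunit of GABP, was detected on 5 arrays by 1 of its 3 probes and differed by 0.18 ± 0.16 SE, at a mean only 0.21 above the lowest detected signal.

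Gabpb1, the partner subunit, had 2 detected probes that were both dim. The brighter read 5.15, 4.91 and 4.38 in controls and 4.77, 4.85 and 4.6 in knockouts, a difference of -0.08 ± 0.19 SE, with adjusted p = 0.857. The other read 4.88, 4.77 and 4.44 against 4.34, 4.24 and 4.82, a difference of -0.23 ± 0.18 SE. Both had overlapping groups, and control 3 was the lowest control by each.

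All 4 genes of mitochondrial transcription were detected on every array. Tfb2m, whose protein opens the promoter for the mitochondrial RNA polymerase, read 8.02, 8.12 and 7.98 in controls and 7.64, 7.71 and 7.76 in knockouts. All 3 knockouts were below all 3 controls. The difference was -0.34 ± 0.13 SE, or 1.27-fold lower, with an interval from -0.62 to -0.05 and an adjusted p of 0.17. It was called only with no background correction (-0.24, adjusted p = 0.0424).

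For Tfam, which coats and activates mitochondrial DNA, the probes disagreed in size. The brighter read 6.06, 7.01 and 6.57 in controls and 6.56, 6.59 and 6.41 in knockouts, so that control 1 was the lowest heart and control 2 the highest. Its difference was -0.03 ± 0.21 SE, moving from -0.27 without control 1 to 0.21 without control 2. The dimmer probe read 6.24, 6.31 and 6.26 in controls against 5.81, 5.93 and 6.16 in knockouts. There the groups did not overlap, and the difference was -0.30 ± 0.14 SE with an adjusted p of 0.275 over all probes.

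Polrmt, the polymerase itself, was 9.05 ± 0.08 in controls and 8.98 ± 0.03 in knockouts. With a difference of -0.07 ± 0.13 SE and an interval from -0.35 to 0.21, a change of more than 1.5-fold lay outside its interval. Tfb1m, a relative of Tfb2m that methylates ribosomal RNA in mitochondria, was 5.76 ± 0.07 and 5.61 ± 0.19, a difference of -0.15 ± 0.14 SE. Neither passed the test (adjusted p = 0.808 and 0.615).

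The sirtuins, deacetylases that depend on NAD, lay on opposite sides of 0. Sirt1, which deacetylates PGC-1 alpha in the nucleus, read 5.51, 5.79 and 5.72 in controls and 5.98, 6.22 and 5.97 in knockouts. Each knockout was above each control, and the difference of 0.38 ± 0.14 SE, or 1.30-fold higher, was the largest of the 21 by estimate. Its interval ran from 0.07 to 0.70, and the adjusted p was 0.165. With no background correction the difference was 0.15 and it was not called (adjusted p = 0.211). Sirt3, the main deacetylase inside mitochondria, read 8.41, 8.76 and 8.96 in controls and 8.46, 8.47 and 8.17 in knockouts. Control 1 fell among the knockouts, and the difference was -0.34 ± 0.17 SE (adjusted p = 0.28). Without control 1 it was -0.49, with an adjusted p of 0.1.

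**Figure D3:**
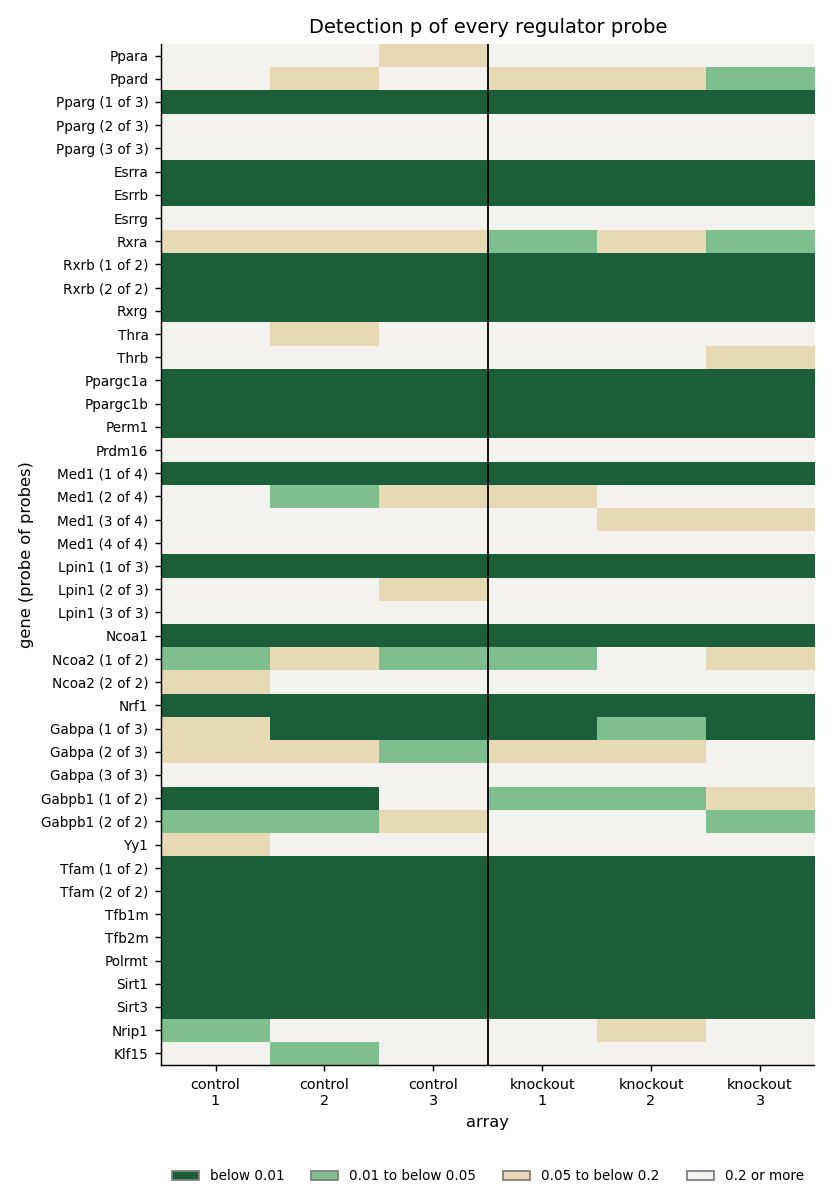
Detection p (colour) of the 44 regulator probes (rows, by role) on the 6 arrays (columns). Green marks detection p below 0.05, and 18 of the tested genes are green across all arrays, while the probes of Ppara, Esrrg, Thra, Thrb, Prdm16 and Yy1 are green on none.

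For 10 regulators the arrays gave no usable level. Ppara, the principal fatty acid receptor of heart, had 1 probe, with a detection p from 0.0652 to 0.998. Esrrg, Thra, Thrb, Prdm16 and Yy1 were likewise undetected on all 6 arrays. Esrrg is the ERR isoform of oxidative tissues, Thra and Thrb encode thyroid hormone receptors, Prdm16 is a coregulator of brown fat, and Yy1 is a zinc-finger factor that binds PGC-1 alpha. These probes were not well above background, which does not show that the transcripts are absent.

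Single arrays passed the detection level for the other 4. Rxra, the most general retinoid X receptor, was detected on knockouts 1 and 3, with detection p of 0.0201 and 0.0188, and lay between 0.0539 and 0.154 on the other 4 arrays. Ppard, another PPAR of muscle, was detected on knockout 3 alone, Klf15, a Kruppel-like factor of amino acid and lipid use, on control 2 alone, and the corepressor gene Nrip1 on control 1 alone. No fold is given for these 10 genes. With Ncor1 not analysed and Nrip1 undetected, no corepressor of the list was measured.

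A list of known PPAR alpha targets was read beside the regulators, although Ppara itself was undetected. Of 19 tested, 5 fell and 0 rose (26.3% called, against 4.25% of all genes), with a median of -0.503. The log2 difference was -2.30 ± 0.29 SE for Acot1, a thioesterase, and -2.16 ± 0.50 SE for Pdk4, the kinase that restrains pyruvate oxidation. It was -1.28 ± 0.24 SE for the lipase inhibitor gene Angptl4, -1.12 ± 0.22 SE for Plin5 of lipid droplets and -0.72 ± 0.17 SE for Cpt1b, the gateway for fatty acids into mitochondria. Second detected probes gave -0.90 ± 0.19 SE for Acot1, -0.79 ± 0.15 SE for Cpt1b and -0.58 ± 0.15 SE for Plin5, the last not called (adjusted p = 0.0564 over all probes). The list was drawn up with these falls already known, so its count is a description. Pdk4 was 6.98 on knockout 1 and at least 8.85 on all other arrays. Without knockout 1 its difference was -1.47 and not called (adjusted p = 0.0509). Its call was also lost without control 1, control 3 or knockout 3, with no detection filter and with a trended and robust variance prior (adjusted p = 0.224). The atrial gene Myl4 was 10.23 on that same array and 5.71 to 5.95 on the others. Nppa, the other detected atrial marker, was lowest there, at 11.71 against 12.24 to 14.24. The atrial markers Sln and Myl7 were not detected. The part of atrial tissue in the Pdk4 value was not tested. The Cpt1b call was lost with median scaling (adjusted p = 0.7565), no detection filter (adjusted p = 0.105) and a replicate block (adjusted p = 0.0782). The count of called targets was 1 without control 3, and 3 without knockout 1 or knockout 2. With the trended and robust variance prior it was 12, Pdk4 not among them.

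**Figure D4:**
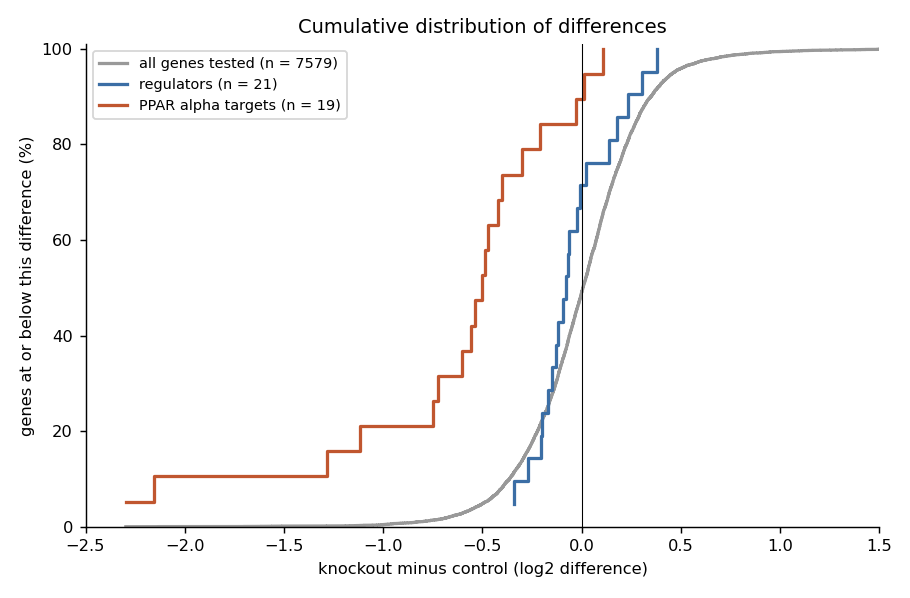
Share of genes (y axis, %) at or below each knockout minus control log2 difference (x axis), for all 7579 genes tested, the 21 regulators and 19 PPAR alpha targets. The regulators span -0.34 to 0.38, and the target curve lies to the left, with a median of -0.503. The target list was drawn up with its falls already known.

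Lists for the other regulators held fewer called genes and overlapped with the first. They too were chosen with earlier results of these data known, so their counts are descriptions. Of all genes tested, 4.25% were called. Of 17 ERR and PGC-1 targets, 2 fell (11.8%; Pdk4 and Cpt1b, both also PPAR alpha targets) and the median was -0.128. Among 11 thyroid hormone targets 2 fell (18.2%): the pacemaker channel gene Hcn2 (-1.51 ± 0.19 SE) and Hr, a corepressor gene induced by thyroid hormone in rodent brain (-1.05 ± 0.14 SE). A second, dim Hr probe, detected on 3 arrays, gave 0.03 ± 0.17 SE. The mean of both Hr probes differed by -0.51 (adjusted p = 0.0471), and the median of this list was -0.046. Of 7 KLF15 targets tested, Pdk4 and the alanine aminotransferase gene Gpt (-0.67 ± 0.17 SE) fell. The third call was Kcnip2, a potassium channel subunit gene, which passed the detection filter only through the 3 controls, so no share is read from this list. It was undetected in every knockout and at least 1.32-fold lower (adjusted p = 0.0443), and it was not called with no background correction, in the authors' deposited table or with an offset of 50 (adjusted p = 0.0639 to 0.14). The receptors Thra and Thrb and the factor Klf15 were themselves undetected. The counts of ERR and of KLF15 targets, Kcnip2 included, were both 0 without control 3, knockout 1 or knockout 3, and both 1 without control 2 or knockout 2.

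None of 24 further genes of mitochondrial DNA maintenance and expression was called, with a median of -0.045, and 1 of 25 other cofactors was (4%), where 4.25% of all genes were. The closest were Rnaseh1, which removes RNA primers, at -0.69 ± 0.18 SE (adjusted p = 0.0519), and Hsd17b10, a subunit of mitochondrial RNase P, at -0.51 ± 0.14 SE (adjusted p = 0.0655). Hsd17b10 was called under 7 other settings, among them no background correction and leaving out control 1. Rnaseh1 too was called under other settings, among them the trended and robust variance prior (adjusted p = 0.0329) and array weights (adjusted p = 0.0301). Its difference shrank to -0.42 by the mean of its detected probes (adjusted p = 0.114). With no background correction it was -0.20 (adjusted p = 0.124), and neither was called. The called cofactor gene, Med16 of the Mediator complex, fell by 0.71 (SE 0.14, adjusted p = 0.0216), and the median was 0.02. That call was lost with median scaling and without control 3, knockout 2 or knockout 3 (adjusted p = 0.0642 to 0.089 in these 3).

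**Figure D5:**
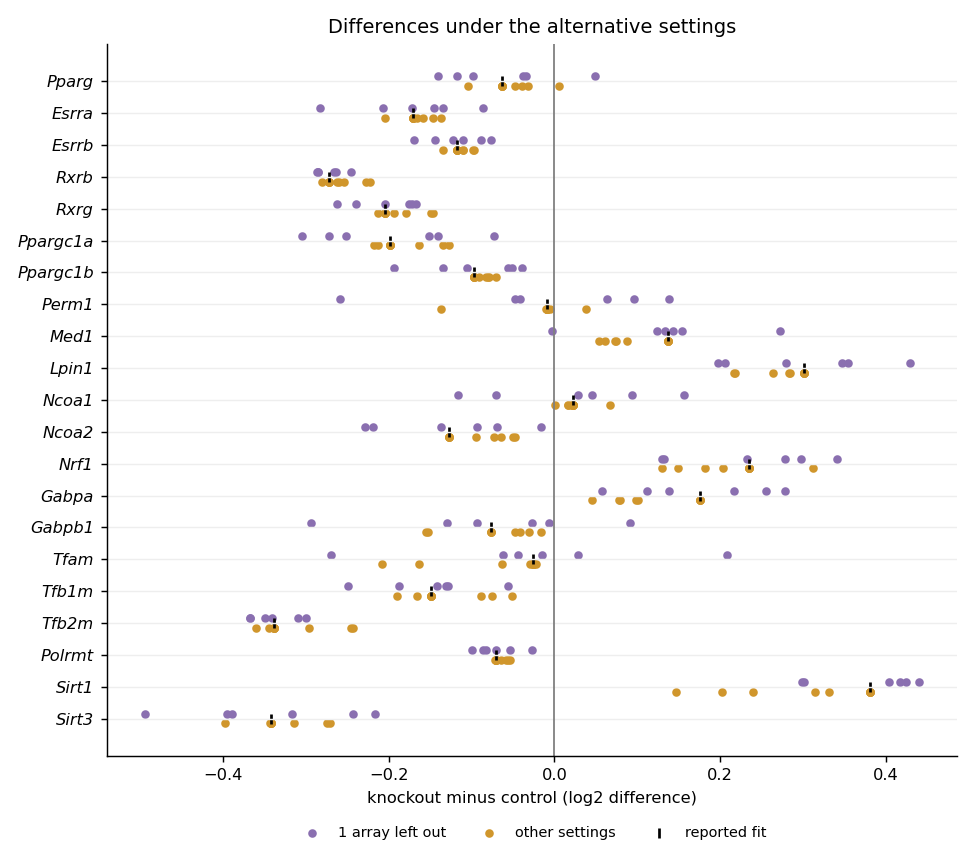
Knockout minus control log2 difference (x axis) of the 21 regulators (y axis) in the reported fit (black bars), with 1 array left out (upper points) and under the other settings (lower points). Sirt1, Lpin1, Nrf1, Tfb2m, Rxrb, Rxrg and Sirt3 stay on 1 side of 0, whereas Perm1, Tfam, Ncoa1 and Pparg cross it.

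Across 16 alternative settings (15 for Gabpa, Gabpb1 and Ncoa2) no regulator was called except Tfb2m and Rxrb with no background correction. The sign held in every setting for 15 of the 21, and turned in at least 1 for Pparg, Gabpb1, Tfam, Perm1, Med1 and Ncoa1. Tfb2m ranged from -0.37 to -0.24 and Sirt1 from 0.15 to 0.44.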

How the data were processed

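Gene expression in hearts of 3 control and 3 knockout mice was measured on Illumina bead arrays. The authors deposited intensity values that were not normalized, with a detection p-value per probe and array, per the file headers, and a second table of intensity values on a linear scale whose 6 columns share 1 distribution. The submitters' processing notes name GenomeStudio, and the scaling of the second table is not stated in these sources. Each array of the first table was matched to a sample record by the ranks of all probes (Spearman rho 1 with 1 record, at most 0.855 with any other), which exchanges the group names of its headers and keeps its replicate numbers.

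Of 25696 probes 23977 had 1 gene symbol, 0 had several and 1719 are unnamed here. Symbols follow the platform annotation, updated by gene identifier. Values were background-corrected and quantile-normalized on the log2 scale with neqc (limma 3.58.1, R 4.3.3; offset 16, negative controls inferred from the deposited detection p-values). Probes with detection p below 0.05 on at least 3 arrays were kept (10407). The brightest probe stood for its gene (7579). Knockout minus control was tested with lmFit and eBayes, 2-sided, with Benjamini-Hochberg adjustment over all genes, or over all probes where a second probe is given, and called at an adjusted p below 0.05. Errors are SDs over 3 mice or moderated standard errors. On simulated data for this comparison (7579 genes), 27.9% of log2 changes of 0.5 and 98.8% of changes of 1 were called. The simulated noise was normal, independent between genes and of moderated variance. It understates the spread of the most variable genes and leaves out correlation between genes, so these shares may be too high. The design text gives 3 mice per group, the labels do not tie a sample to an animal, and precision is limited by the number of arrays. With 3 against 3 the smallest p of an exact permutation test is 0.1.

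The regulators, the lists of their targets and the settings were chosen with earlier results of these data known. All 33 regulators are named. Values per array are given for those with several detected probes or the 8 smallest p. Undetected regulators are described by detection p. Of other lists, called genes are named (at most 6), or the 2 with the smallest p. Same-numbered control and knockout arrays did not deviate together (correlations -0.053, 0 and -0.062), so the numbers were not used as pairs. Alternatives covered background correction, the deposited table, scaling, offset, detection filter, probe choice, variance prior, array weights, a replicate block and leaving out each array. Plots come from matplotlib 3.10.9 under Python 3.11.15. Protein sequences were not used here.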

Additional observations from a re-analysis of the deposited data

How the results depend on the processing

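The count of 0 regulators and 0 regulator probes called became 2 of each with no background correction and was 0 under the other settings run and without any single array. The regulators' median difference was -0.047 to -0.118 over all settings. Signs that turned were those of small differences: Pparg was 0.005 with array weights, Perm1 was 0.038 with median scaling, and over the fits leaving out 1 array Pparg ran from -0.14 to 0.049, Gabpb1 from -0.294 to 0.091, Tfam from -0.27 to 0.208, Perm1 from -0.259 to 0.138, Med1 from -0.003 to 0.272 and Ncoa1 from -0.116 to 0.157. The cause was not tested.

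All genes called numbered 322, against 554 with no background correction, 589 in the authors' deposited value table, 54 with median scaling, 142 with no detection filter, 558 with an offset of 50, 645 with a trended and robust variance prior and 586 with array weights. Leaving out 1 array gave 100 to 401, with 61.1% of calls higher under median scaling and 41.9% without control replicate 1 against 52.8%. Called PPAR alpha targets numbered 10 with no background correction, 11 in the deposited table, 1 with no detection filter, 10 with an offset of 50, 12 with the trended prior, 9 with array weights and 1 to 4 with 1 array left out. ERR and PGC-1 targets numbered 4 in the deposited table and with the trended prior, 1 with median scaling, 0 with no detection filter and 0 to 2 with 1 array left out. KLF15 targets numbered 1 with median scaling (Pdk4), 0 with no detection filter and 0 to 2 with 1 array left out. Among the KLF15 targets tested was Kcnip2, which passed the detection filter of the reported fit only through the controls. Thyroid hormone targets numbered 1 with median scaling and 2 elsewhere. Genes of mitochondrial genome expression numbered 2 with no background correction, 1 in the deposited table, with an offset of 50 and with detection on all 6 arrays, 2 with the trended prior, 4 with array weights and 0 to 2 with 1 array left out. Other cofactors numbered 2 in the deposited table, with detection on all 6 arrays, the trended prior or array weights, 0 with median scaling and 0 to 2 with 1 array left out.

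With the replicate number as a block, 171 genes, 0 regulators and 3 PPAR alpha targets were called. ERR and PGC-1 targets called there numbered 0, and so did KLF15 targets. Pdk4, Cpt1b and Gpt were not called in that fit (adjusted p = 0.0528, 0.0782 and 0.0618). Signal over background limits Gabpa, Gabpb1 and Ncoa2, and leaves 10 regulators without a level.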
